A study of Mus musculus with 24 samples.

Results

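The 10 genes described here lie near Eif2ak4 on chromosome 2 and differ between GCN2 knockout and wild-type livers: Cd59a, Cd59b, Chp1, Spg11, Disp2, Capn3, Elf5, Ganc, Tcp11l1 and Gpat2. They were chosen by their place on the chromosome of Eif2ak4 and by their difference between knockout (KO) and wild type (WT) in these same mice. The KO and WT levels below therefore describe the choice and carry no test, while the effects of time of day and diet within a genotype were not part of the choice and were tested. The 10 genes are among 15741 genes listed in any of the deposited tables, of which 14474 had a value in all 24 libraries, and 8 of the 10 had all 24.

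Livers came from 24 mice, 3 in each of 8 groups. The groups were KO LeuD CT15, KO LeuD CT03, KO Control CT15, KO Control CT03, WT LeuD CT15, WT LeuD CT03, WT Control CT15 and WT Control CT03. KO stands for mice lacking GCN2 in the whole body, LeuD for a diet without leucine, Control for the control diet, and CT for circadian time. In all groups alike, mice came from a light-dark cycle and were held in constant darkness for days before sampling. No source used here gives the strain, age, sex, knockout allele or breeding of the mice. Libraries were made from polyadenylated RNA and held 34137121 to 44884200 reads in listed genes. All levels are normalized counts, that is reads over a size factor set across the 24 libraries, and differences are on the scale of log2(normalized count + 1) with their standard error (SE). Hepatocyte markers (6 of 6 listed) summed to 107442 to 181062 RPM (the share of a library, scaled to a common total) in KO and 82412 to 134722 in WT, and their part in the results was not tested. Pancreas acinar markers (9 of 10 listed) summed to 10014 RPM in KO LeuD CT03 replicate 1, 5438 in KO LeuD CT15 replicate 3 and 3112 in WT LeuD CT15 replicate 1, and to 9.24 to 493 in the other libraries. In whole liver, fewer cells of a type and less RNA per cell cannot be told apart.

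Eif2ak4 encodes GCN2, a kinase activated by transfer RNAs that lack their amino acid, which slows translation by phosphorylating eIF2. When a gene is altered in cells of one mouse strain and the line is bred to another strain, DNA around the altered gene is inherited with it because recombination seldom separates close neighbours. Such passenger DNA keeps the sequence variants of the donor strain, and genes inside it can differ in level for reasons that have nothing to do with the altered gene. Whether that applies here was not tested, since the data hold expression values and no genotypes. Passenger DNA, a local effect of the altered allele and an effect of lost GCN2 cannot be told apart. Library identifiers were also uneven by group. All KO libraries fell in a lower run of identifiers, and all WT CT03 and some WT CT15 libraries in a higher run. What the identifiers stand for is not given. A difference that follows them cannot be fully told apart from genotype or, within WT, from time. Eif2ak4 itself averaged 364 ± 71.5 normalized counts in KO and 325 ± 16.5 in WT (SD, n = 12 mice each), with overlapping values. Its KO minus WT differences were 0.34 ± 0.16 and 0.39 ± 0.09 on Control at CT15 and CT03 (SE). On LeuD they were -0.08 ± 0.06 and -0.10 ± 0.16 at those times. KO lay wholly above WT in Control CT03 alone, where 14.9% of all genes had no overlap in either direction. Counts summed over the whole gene do not show whether one part of the transcript is missing, so they do not check the genotype labels.

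The 10 genes were spread on both sides of Eif2ak4. In the order of measured genes along chromosome 2 (GENCODE M21 on GRCm38), Elf5 lay 60 genes, Cd59b 51, Cd59a 50 and Tcp11l1 46 genes toward the start of the chromosome. Toward its end, Disp2 lay 8 genes away, Chp1 28, Ganc 43, Capn3 44, Spg11 77 and Gpat2 123. Levels were lower in KO for 7 of the 10 genes (Cd59a, Cd59b, Chp1, Spg11, Disp2, Capn3 and Gpat2) and higher in KO for 3 (Elf5, Ganc and Tcp11l1). Lower and higher genes stood on both sides of Eif2ak4.

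In 5 of the 8 genes with all 24 values (Cd59a, Cd59b, Chp1, Spg11 and Disp2) the 12 KO libraries did not overlap the 12 WT libraries. Over all 14474 genes with 24 values, 13 did so, which is 0.0898%, with KO below WT in 0.0622% and above it in 0.0276%. The sixth gene, Capn3, had no overlap over the 18 libraries in which it was listed (6 KO Control against 12 WT), a pattern that 0.144% of 14615 genes showed with KO below WT. Since the genes were picked for this contrast, nothing is read from these shares. Without the 3 acinar-rich libraries the number was 6 as well, although leaving out libraries could not have lowered it. The other 4 genes overlapped between genotypes over all their libraries, and for Elf5 (12 KO against 6 WT Control libraries) the share of genes with KO wholly above WT was 0.11%. Within a single diet and time, 10 of 10 had no overlap in Control CT03 and 9 of 10 in Control CT15, where Tcp11l1 was the exception. In LeuD CT15 and in LeuD CT03, 8 of 8 genes with values had none. The share of all genes without overlap between 3 KO and 3 WT mice was 24.2% in LeuD CT15, 19.2% in LeuD CT03, 13.3% in Control CT15 and 14.9% in Control CT03.

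**Figure D1:**
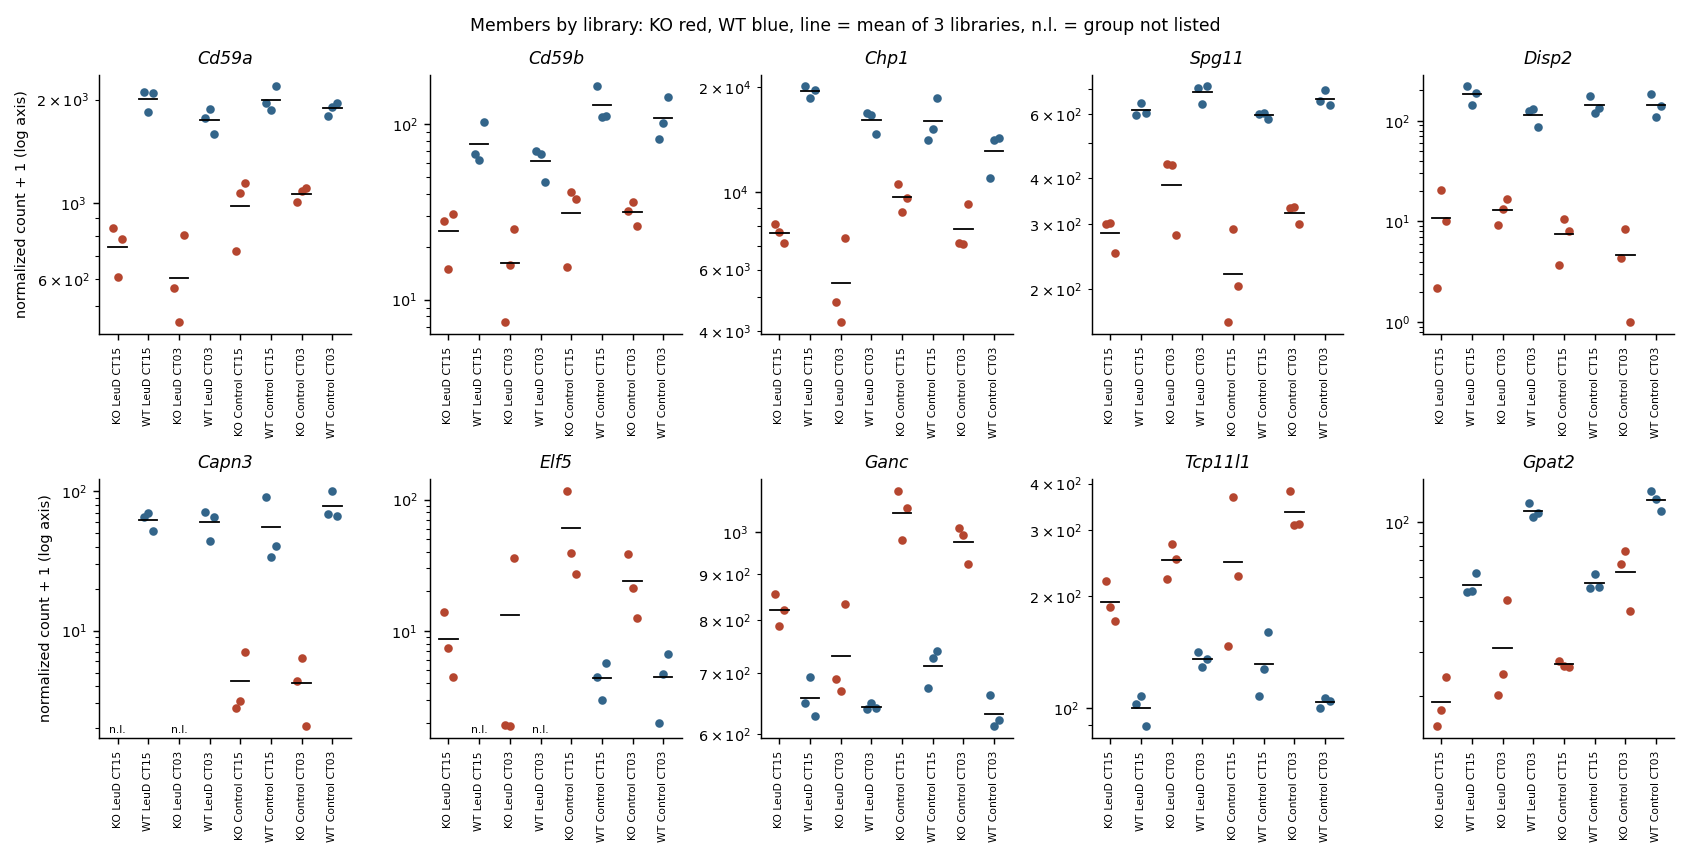
Normalized count + 1 (log axis) of each of the 10 genes in each library, in 8 groups of 3 mice (KO red, WT blue, black line the group mean, n.l. a group not listed for that gene). The KO points of Cd59a, Cd59b, Chp1, Spg11 and Disp2 lie below their WT points in every group, and those of Ganc lie above them within each diet and time.

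Along the chromosome, the share of genes whose genotypes did not overlap is given with the 10 genes, which were chosen for place and difference, and then without them. Among the 20 genes 1 to 10 places from Eif2ak4 that had 24 values, 2 had no overlap, or 10%. The share was 2.90% of 69 genes at 11 to 50 places, 4.55% of 88 genes at 51 to 100 places and 0.538% of 186 genes at 101 to 200 places. Farther away on chromosome 2 there were 0 among 374 genes at 201 to 400 places and 0 among 362 genes beyond that, and on all other chromosomes 4 of 13340 genes, or 0.03%. Without the 10 genes, a choice made after seeing the data, 1 of 19 genes had no overlap at 1 to 10 places, 0 of 65 at 11 to 50, 2 of 86 at 51 to 100 and 1 of 185 at 101 to 200. Differences larger than 0.5 in size were found, with the 10 genes counted, in 20% of genes at 1 to 10 places, 13% at 11 to 50, 12.5% at 51 to 100, 3.23% at 101 to 200 and 4.65% on other chromosomes. Without the 10 genes these shares were 15.8%, 9.23%, 10.5% and 2.70% at the 4 distances. The median size of the difference was 0.11, 0.19, 0.16 and 0.10 at these 4 distances and 0.11 on other chromosomes. Without the 10 genes the medians at the 4 distances were 0.09, 0.18, 0.16 and 0.10. The closest genes were uneven by side: over the 10 toward the chromosome end the median size was 0.46, with 4 over 0.5 and 2 without overlap, and over the 10 toward its start it was 0.03, with 0 over 0.5 and 0 without overlap. Disp2, a described gene, is among the 10 toward the end. Over the other 9 the median size was 0.44, with 3 over 0.5 and 1 without overlap. Of the 8 genes without overlap within 100 places, 5 are described genes picked in part for lying there, and the others are A430105I19Rik, Eif3j1 and Bloc1s6.

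**Figure D2:**
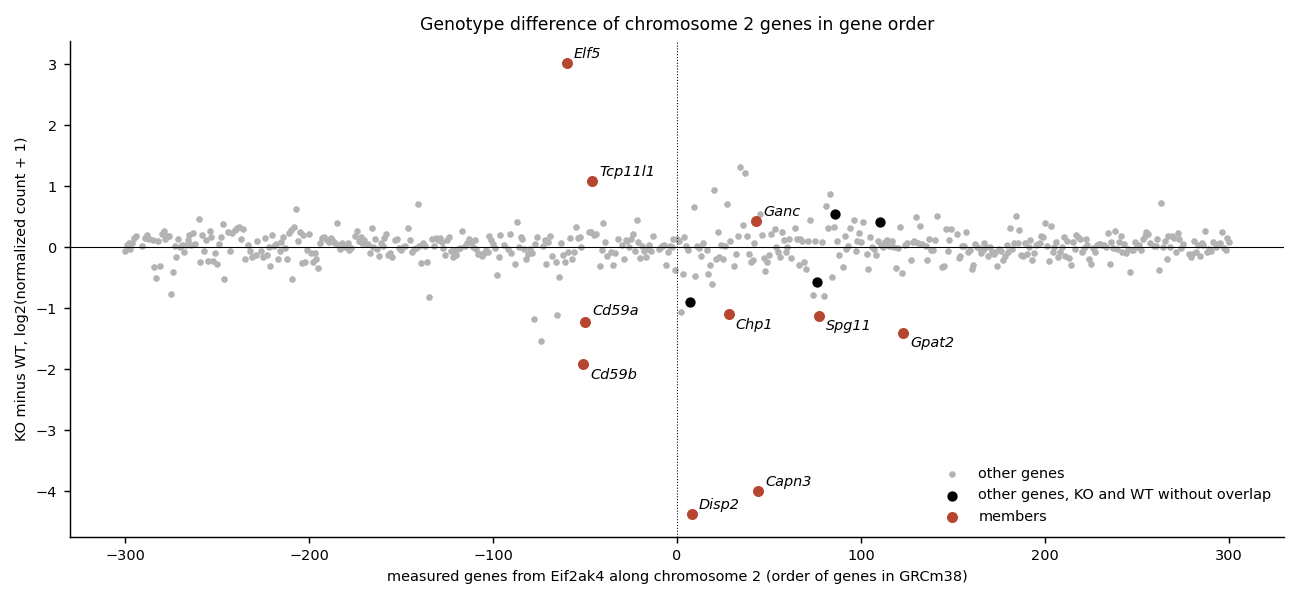
KO minus WT difference on the log2(normalized count + 1) scale (vertical axis, mean of the conditions in which a gene was listed for both genotypes) against the number of measured genes from Eif2ak4 along chromosome 2 (horizontal axis), with the 10 described genes in red and other genes without overlap in black. Disp2 at -4.37 and Capn3 at -4.00 are the lowest points shown, Elf5 at 3.01 is the highest, and the 4 black points lie 7, 76, 86 and 110 genes toward the chromosome end.

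Cd59a and Cd59b are neighbouring copies that encode GPI-anchored inhibitors of the complement membrane attack complex. Both were lower in KO. Cd59a had 447, 822 and 1144 normalized counts as its lowest, median and highest value in KO, against 1585, 1892 and 2184 in WT. The highest KO library thus stood below the lowest WT library. Its difference was -1.22 ± 0.09 over the 4 conditions, between -1.57 ± 0.26 in LeuD CT03 and -0.83 ± 0.06 in Control CT03. Cd59b, which in mice is known mainly from testis, was the scarcer copy at 6.42, 26.1 and 40.3 normalized counts in KO and 45.8, 91.3 and 164 in WT. Its KO libraries also lay below all its WT libraries, with a difference of -1.92 ± 0.22. Per kb of exon, Cd59a averaged 467 in KO and 1053 in WT, and Cd59b 19.1 in KO and 71.6 in WT. The copies have 70 stretches of 50 bases in common. In all, 3.87% of the 50-base stretches of Cd59a and 20.1% of those of Cd59b occur in another gene. Those of Cd59b also match Efr3a (115), Gm28625 (86) and 4930509G22Rik (68). Reads of such stretches could have been split or dropped, and no source used here says how such reads were counted. Fbxo3, the measured gene on the other side of Cd59b, had a difference of -0.00, with 5175 ± 1046 normalized counts in KO and 5115 ± 580 in WT.

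The 250 bases before the annotated starts of this adjacent pair are shown because the pair differed in the same direction (RefSeq, GRCm38.p6, 5′ to 3′). Neither sequence held any of 6 motifs searched on both strands: the E-box CACGTG, the D-box TTATGTAA, the amino acid response element TTGCATCA, the CCAAT box CCAAT, the TATA box TATAAA and the GC box GGGCGG. These occur in 6.02%, 0.819%, 0.791%, 33.8%, 12.4% and 32.7% of 32851 promoter windows of that length. Cd59a held 0 and Cd59b held 1 CpG, against a median of 6 over all windows. A motif match, or the lack of one, describes these letters alone.
Cd59a (chr2:104095551-104095800, plus strand): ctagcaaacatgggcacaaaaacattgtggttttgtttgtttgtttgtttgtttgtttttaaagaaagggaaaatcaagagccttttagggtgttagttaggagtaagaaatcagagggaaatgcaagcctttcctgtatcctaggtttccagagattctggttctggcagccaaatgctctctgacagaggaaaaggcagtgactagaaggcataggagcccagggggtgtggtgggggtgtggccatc
Cd59b (chr2:104070816-104071065, plus strand): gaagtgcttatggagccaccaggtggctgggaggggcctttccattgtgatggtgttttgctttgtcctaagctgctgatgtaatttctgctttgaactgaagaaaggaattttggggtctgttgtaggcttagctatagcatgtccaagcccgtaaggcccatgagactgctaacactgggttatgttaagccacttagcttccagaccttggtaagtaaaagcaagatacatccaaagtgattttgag

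Chp1 encodes a small calcium-binding protein that binds the acyltransferase Gpat4. It was the most abundant of the 10 genes per kb of exon, at 2189 in KO and 4622 in WT. In LeuD CT15 it had 8110, 7681 and 7145 normalized counts in KO, against 20126, 18608 and 19656 in WT. In LeuD CT03 the values were 4834, 4242 and 7409 in KO and 16861, 16671 and 14712 in WT. On both occasions every KO library stood below every WT library, by -1.35 ± 0.06 at CT15 and -1.59 ± 0.25 at CT03. On the Control diet the gap was narrower, with 10577, 8792 and 9634 in KO and 14157, 15196 and 18631 in WT at CT15. At CT03 on that diet there were 7147, 7095 and 9240 in KO and 11018, 14129 and 14303 in WT. The Control differences were -0.72 ± 0.14 at CT15 and -0.75 ± 0.18 at CT03, still without overlap. The interaction of genotype with diet, tested further on, was not called with all mice kept (limma, adjusted p = 0.215 at CT15 and 0.310 at CT03). Of its 50-base stretches 4.58% occur elsewhere, 160 of them in the gene model Gm20056. Its neighbours Exd1 (0.71, overlapping) and 1700020I14Rik (0.10, overlapping) were not lower in KO.

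The promoter window of Chp1 is shown as a contrast to that of the Cd59 pair: it held 26 CpG, a CCAAT box and GC boxes, which are in capitals on either strand (RefSeq, GRCm38.p6).
Chp1 (chr2:119547457-119547706, plus strand): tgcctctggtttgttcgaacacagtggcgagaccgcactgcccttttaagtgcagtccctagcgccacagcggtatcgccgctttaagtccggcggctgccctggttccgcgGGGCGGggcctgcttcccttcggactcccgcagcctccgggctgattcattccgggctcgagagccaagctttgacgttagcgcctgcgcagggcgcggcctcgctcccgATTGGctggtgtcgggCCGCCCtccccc

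Spg11 encodes spatacsin, a protein of lysosome reformation whose loss causes a hereditary spastic paraplegia in humans. It had 162, 299.5 and 438 normalized counts as lowest, median and highest in KO and 580, 635 and 711 in WT, with no overlap. The difference was -1.12 ± 0.09, between -1.48 ± 0.25 in Control CT15 and -0.86 ± 0.22 in LeuD CT03. Spg11 overlaps Eif3j1, a subunit of the translation initiation factor eIF3, on the opposite strand, and the library kit is one that normally keeps no strand information. Of its 50-base stretches 13% occur in another gene, with 870 in Eif3j1, 648 in Gm3650 and 63 in Eif3j2. Its counts are thus uncertain. Eif3j1 was itself lower in KO without overlap, at 1653 ± 240 normalized counts in KO and 2429 ± 217 in WT, a difference of -0.56. Eif3j2, a near-identical gene on chromosome 18, went the other way, at 687 ± 109 in KO and 64.8 ± 13.5 in WT (3.39). How reads were shared among these genes was not tested.

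Disp2 encodes a membrane protein related to Disp1, which releases lipid-modified Hedgehog proteins. It was nearly silent in KO. Its KO values were 1.18, 19.4 and 9.16 normalized counts in LeuD CT15 and 8.26, 12.2 and 15.8 in LeuD CT03. On the Control diet they were 2.68, 9.54 and 7.08 at CT15 and 3.33, 7.46 and 0 at CT03. WT libraries ranged from 85.2 to 219 with a median of 135, far above every KO library. In all, 97 reads fell on Disp2 in the 12 KO libraries and 1801 in the 12 WT libraries. The difference was -4.37 ± 0.37. No 50-base stretch of Disp2 (0 of 9765) occurs in another gene. On one side, A430105I19Rik was also lower in KO without overlap, at 59.3 ± 14.3 in KO and 110.2 ± 20.7 in WT (-0.90). On the other, Knstrn, a kinetochore gene, had 47.2 ± 15.0 in KO and 34.8 ± 30.6 in WT (0.65), with overlap.

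Capn3 encodes calpain 3, a calcium-activated protease known from skeletal muscle, whose loss causes a limb-girdle muscular dystrophy in humans. It was listed for the KO mice on the Control diet alone. Those libraries had 1.79, 2.12 and 6.07 normalized counts at CT15 and 3.33, 5.33 and 1.05 at CT03, which amounts to 19 reads in 6 libraries. WT Control libraries had 90.5, 32.8 and 39.5 at CT15 and 68.1, 100 and 65.0 at CT03. Each KO library held only a few reads and lay below every WT library, and the differences were -3.67 ± 0.61 at CT15 and -4.33 ± 0.52 at CT03. WT LeuD libraries, which have no listed KO counterpart, ranged from 43.1 to 69.4. The deposited comparisons set KO against WT on the Control diet only, and the genes they list had at least 61 reads over 6 libraries. Capn3 in KO is thus listed only beside WT libraries, and its missing KO LeuD values are neither a measured absence nor a diet effect. Skeletal muscle markers (5 of 5 listed: Ckm, Acta1, Mylpf, Tnnt3 and Myh4) summed to 181 RPM in WT Control CT15 replicate 1, the library with 90.5 for Capn3, and to 1.34 to 3.30 in KO and 1.72 to 2.36 in the other WT libraries. Capn3 was 32.8 to 100 in those other 11 WT libraries. Capn3 overlaps Ganc on the same strand, with 338 stretches of 50 bases in common, and Ganc differed in the opposite direction.

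Capn3 has a second annotated start, and the 250 bases before it are shown because they hold a match to the amino acid response element, a sequence bound by factors such as ATF4 downstream of GCN2 (RefSeq, GRCm38.p6, match in capitals). Among the 11 windows found for 9 of the 10 genes, no other held that element. It occurs in 0.79% of 32851 promoter windows of that length. The window was picked for its match, which describes these letters alone. A part of the element in the level of Capn3 was not tested. No window was found for Disp2.
Capn3, second start (chr2:120476659-120476908, plus strand): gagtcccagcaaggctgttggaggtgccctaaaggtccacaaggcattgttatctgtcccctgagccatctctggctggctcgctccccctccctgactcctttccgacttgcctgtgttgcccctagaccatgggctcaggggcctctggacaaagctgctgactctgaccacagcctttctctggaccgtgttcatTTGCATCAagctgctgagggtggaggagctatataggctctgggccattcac

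Elf5 encodes an ETS transcription factor of mammary, trophoblast and other epithelia. It was scarce in liver and higher in KO on the Control diet, where KO libraries had 116, 38.1 and 26.3 normalized counts at CT15 and 37.8, 20.3 and 11.5 at CT03. WT Control libraries had 3.45, 1.99 and 4.71 at CT15 and 0.973, 3.67 and 5.71 at CT03. The differences were 3.56 ± 0.69 at CT15 and 2.46 ± 0.70 at CT03, without overlap at either time. In KO LeuD livers it was 12.9, 6.46 and 3.44 at CT15 and 0.918, 0.871 and 34.8 at CT03, and no WT LeuD values were listed. KO LeuD libraries thus reached down into the WT Control range. Elf5 in WT, with 21 reads in 6 Control libraries, is listed only beside KO libraries. No deposited comparison set KO against WT on LeuD, so the missing WT LeuD values are not a measured absence. The mammary and keratin epithelium markers searched for, 4 in number, were listed in no table, and markers of bile duct and other epithelium (5 of 5 listed) summed to 28.8 to 78.1 RPM in KO and 30.0 to 54.8 in WT. Its neighbours Ehf, a related ETS factor (-0.24), and Cat, which encodes catalase (-0.08), overlapped between genotypes.

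Ganc encodes neutral alpha-glucosidase C, of the glucosidase family that includes the lysosomal enzyme Gaa, and was modestly higher in KO. On the Control diet it had 1109, 979 and 1060 normalized counts in KO and 673, 726 and 739 in WT at CT15, and 1010, 990.5 and 920.5 in KO and 661, 611 and 621 in WT at CT03. On LeuD it had 854, 788 and 820.0 in KO and 648, 693 and 628 in WT at CT15, and 688, 669 and 833 in KO and 638, 648 and 640 in WT at CT03. Every diet and time was without overlap, although the 12 KO and 12 WT values overlap when pooled. The differences were 0.56 ± 0.07 and 0.62 ± 0.05 on Control at CT15 and CT03, and 0.32 ± 0.05 and 0.18 ± 0.10 on LeuD at those times. Ganc also overlaps Tmem87a on the opposite strand, which differed by 0.07.

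Tcp11l1 is a relative of the testis gene Tcp11. It ranged from 146 to 382 normalized counts in KO (median 238) and from 88.4 to 159 in WT (median 107). The largest of its 4 differences, 1.68 ± 0.10, was in Control CT03, with 382, 309 and 312 in KO and 99.2, 105.5 and 104 in WT. In Control CT15 the values were 146, 368 and 226 in KO and 107, 126 and 159 in WT, and the groups overlapped (0.83 ± 0.42). Tcp11l1 overlaps Cstf3, a gene of mRNA 3′-end processing on the opposite strand, which had 691 ± 115 in KO and 583 ± 103 in WT.

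Gpat2 encodes a glycerol-3-phosphate acyltransferase, of the family that starts glycerolipid synthesis, and is known as abundant in testis. It lies farthest from Eif2ak4 of the 10 genes and is the one whose time-of-day difference passed a test, given further on. In LeuD CT15 it had 14.1, 16.6 and 22.9 normalized counts in KO and 51.5, 51.9 and 61.5 in WT. In LeuD CT03 it had 19.3, 23.5 and 47.4 in KO and 118, 103.5 and 107 in WT. KO lay below WT at both times. On the Control diet it had 26.8, 25.4 and 25.3 in KO and 53.4, 60.7 and 53.7 in WT at CT15, and 66.7, 75.7 and 43.0 in KO and 132, 122 and 109.6 in WT at CT03. The genotype differences were -1.59 ± 0.21 and -1.93 ± 0.39 on LeuD at CT15 and CT03, and -1.08 ± 0.06 and -1.0 ± 0.25 on Control at those times. No 50-base stretch of Gpat2 (0 of 2579) occurs in another gene, and its neighbours Adra2b (-0.42), an adrenergic receptor gene, and Fahd2a (0.04) overlapped between genotypes. Pooled over times the genotypes overlap, because KO values at CT03 reach the WT values of CT15.

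**Figure D3:**
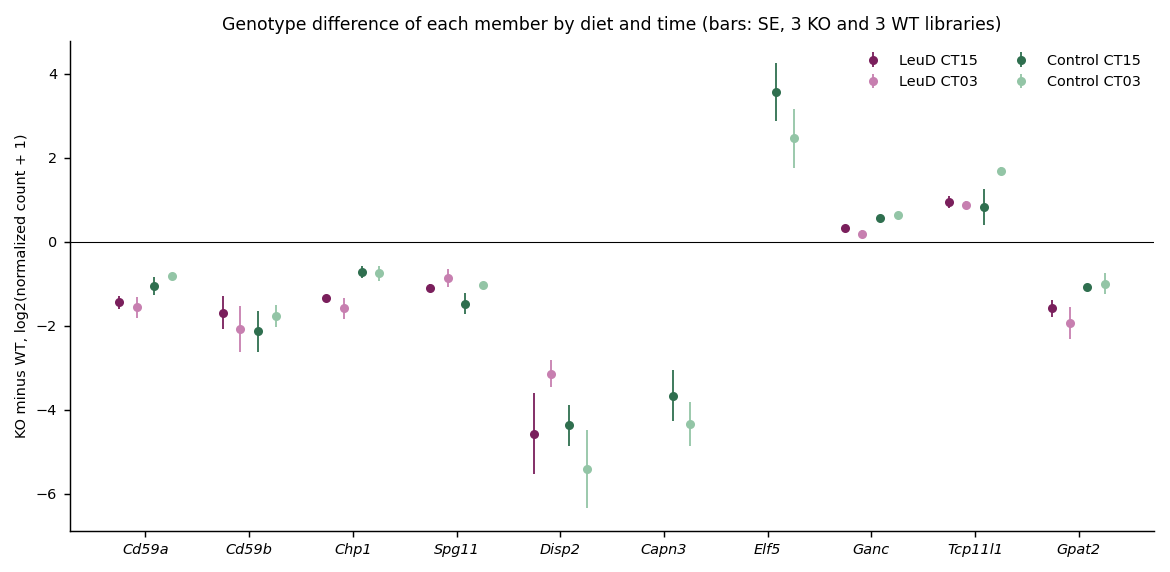
KO minus WT difference of each gene on the log2(normalized count + 1) scale in LeuD CT15, LeuD CT03, Control CT15 and Control CT03 (points, with bars for the SE from 3 KO and 3 WT libraries). Each gene keeps its side of 0 in all conditions drawn. The values of Chp1 are farther from 0 on LeuD (-1.35 and -1.59) than on Control (-0.72 and -0.75), but its genotype by diet interaction was not called with all mice kept.

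Relatives and partners of the 10 genes were taken from a list of 40, of which 3 (Ehf, Ap5s1 and Agpat2) are also on chromosome 2. In this list, which covers calpains, complement regulators, Hedgehog release, ETS factors, Chp1 partners, glucosidases, spatacsin partners and acyltransferases, 38 genes had 24 values and 0 had genotypes without overlap, beside 0.0898% of all genes. No contrast with the 10 genes is drawn, since those were picked for their difference. Their differences ranged from -0.39 (Mgam, maltase-glucoamylase) to 0.57 (Elf3), with a median of 0.00 and a median size of 0.14, against 0.00 and 0.11 over all genes. Among complement regulators, Cd55 had 549 ± 80.7 normalized counts in KO and 657 ± 98.9 in WT. Disp1 had 111 ± 45 in KO and 101 ± 15.1 in WT. Chp2 had 154 ± 53.1 in KO and 172 ± 40.1 in WT (all SD, n = 12). Among acyltransferases, Gpam, Gpat3 and Gpat4 differed by 0.18, -0.14 and -0.12.

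The question of time of day was tested within each genotype and diet, CT15 against CT03, with limma and Benjamini-Hochberg adjustment over all genes of a table. Only Gpat2 was called among the members, and only in WT. It was lower at CT15, with a difference of -0.99 ± 0.18 in WT LeuD (adjusted p = 0.0122, limma) and -1.10 ± 0.18 in WT Control (adjusted p = 0.0393, limma), and with all CT15 mice below all CT03 mice in both. In KO the difference was -0.64 ± 0.44 on LeuD (adjusted p = 0.502) and -1.19 ± 0.29 on Control (adjusted p = 0.206), neither called, although the Control value was called in 1 limma fit of all 24 libraries (adjusted p = 0.0185). The test of the difference between genotypes gave -0.09 ± 0.32 on Control (adjusted p = 0.994) and 0.34 ± 0.45 on LeuD (adjusted p = 0.835), so the time effect of Gpat2 was not shown to differ between KO and WT. In these interaction tests 0 of 10 members were called on Control and 0 of 8 on LeuD (0 and 0 at an unadjusted p under 0.05, beside 4.99% and 9.32% of all genes), against 0.0271% and 0.0205% of all genes called. Of 9 members listed, 1 was called in WT Control and 1 in WT LeuD, against 1.42% and 9.61% of all genes called in either direction and 0.548% and 5.29% called as lower at CT15. In KO, 0 of 8 members were called on either diet (2 on Control and 1 on LeuD at an unadjusted p under 0.05, beside 12.3% and 16.2% of all genes), against calls of 0.0407% of all genes on Control and 0.805% on LeuD. The call in WT Control ended in the 1 limma fit of all 24 libraries (-1.10, adjusted p = 0.0503) and when any 1 of the 6 libraries was left out (adjusted p 0.0791 to 0.179), and that in WT LeuD ended without CT03 replicate 2 (adjusted p = 0.0534). With a replicate block both calls ended (limma, adjusted p = 0.0973 in WT Control and 0.0518 in WT LeuD). Time in WT also runs partly along the library identifiers, as given above.

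The promoter window of Gpat2 is shown because it is the gene with a tested time effect. It held a CCAAT box on the minus strand, in capitals, and no E-box or D-box, the elements bound by clock factors and by PAR bZIP factors, with 11 CpG (RefSeq, GRCm38.p6).
Gpat2 (chr2:127424949-127425198, plus strand): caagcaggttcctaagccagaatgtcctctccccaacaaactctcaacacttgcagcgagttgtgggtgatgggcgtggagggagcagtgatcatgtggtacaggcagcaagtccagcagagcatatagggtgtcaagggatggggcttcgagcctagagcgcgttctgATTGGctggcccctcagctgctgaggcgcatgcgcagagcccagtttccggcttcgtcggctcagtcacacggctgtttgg

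Other members had time differences that did not pass. Disp2 in WT LeuD was 219, 142 and 190 normalized counts at CT15 and 123, 130 and 85.2 at CT03, without overlap, a difference of 0.70 ± 0.23 (adjusted p = 0.0916). Chp1 differed by 0.28 ± 0.10 in WT LeuD (adjusted p = 0.134) and by 0.51 ± 0.22 in KO LeuD (adjusted p = 0.295). Without KO LeuD CT03 replicate 3 the KO LeuD value was 0.75 and was called (adjusted p = 0.0396), beside 4.06% of all genes against 0.805% with that mouse. Tcp11l1 had a CT15 minus CT03 difference of -0.44 ± 0.16 in WT LeuD (adjusted p = 0.117).

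Diet was compared as LeuD against Control within genotype and time, and 0 members were called in any of the 4 comparisons. At an unadjusted p under 0.05 there were 3 of 8 in KO CT15, 5 of 8 in KO CT03, 1 of 9 in WT CT15 and 3 of 9 in WT CT03. The shares of all genes at that unadjusted p were 16%, 14.6%, 13% and 17.8% in the same 4 comparisons. The shares of all genes called were 0.0202% in KO CT15, 0.0% in KO CT03, 0.186% in WT CT15 and 2.24% in WT CT03. In KO CT03, where limma called 0 of 14888 genes, 2173 had an unadjusted p under 0.05, edgeR on recovered reads called 0, DESeq2 called 520 and the authors' deposited table called 520. Differences in KO were negative for 7 of 8 members at CT15 and for 7 of 8 at CT03, Spg11 being the exception at both times. Their medians were -0.35 and -0.70, against -0.01 and 0.00 over all genes. The 8 genes were measured in the same mice and are not replicates. Elf5 was not listed in the comparison of the KO LeuD groups, so it entered these comparisons through its Control reads. The share of all genes with a negative difference was not taken, so nothing is read from these numbers and medians. Disp2 and Capn3 were not among the 8; Disp2 had 8.26, 12.2 and 15.8 on LeuD at CT03 in KO, against 3.33, 7.46 and 0 on Control. Hepatocyte markers summed to 157427 to 181062 RPM in KO LeuD CT15, against 114838 to 132676 in KO Control CT15, and to 141123 to 149171 in KO LeuD CT03, against 107442 to 118318 in KO Control CT03. Erythroid markers (5 of 5 listed) summed to 106 to 275 RPM in KO LeuD CT15, against 238 to 365 in KO Control CT15, and to 82.8 to 129 in KO LeuD CT03, against 276 to 381 in KO Control CT03. The part of these cell types in the diet values was not tested. In WT, 4 of 9 members at CT15 and 5 of 9 at CT03 were negative, with medians of 0.01 and -0.12, against -0.01 and -0.01 over all genes.

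Cd59a in KO CT03 had the lowest adjusted p of that comparison's members, with 562, 447 and 802 normalized counts on LeuD and 1001, 1079 and 1101 on Control. All LeuD mice lay below all Control mice, and the difference was -0.85 ± 0.21 (adjusted p = 0.234, limma). Cd59a was called in the authors' deposited table (log2 fold change -0.82, adjusted p = 0.0351), which called 520 genes in all. Without KO LeuD CT03 replicate 3, Cd59a (-1.08, adjusted p = 0.0177), Chp1 (-0.78, adjusted p = 0.0411) and Elf5 were called by limma, beside 8.29% of all genes. Elf5 in KO CT15, at 12.9, 6.46 and 3.44 on LeuD and 116, 38.1 and 26.3 on Control, differed by -2.70 ± 0.65 (adjusted p = 0.136, limma). The authors' deposited table called it (adjusted p = 0.00177), among 698 genes called there, against 3 with limma. Cd59b had LeuD minus Control differences in WT of -0.74 ± 0.26 at CT15 (adjusted p = 0.291) and -0.81 ± 0.27 at CT03 (adjusted p = 0.158). Ganc differed in KO by -0.36 ± 0.13 at CT15 (adjusted p = 0.256) and by -0.42 ± 0.13 at CT03 (adjusted p = 0.290). Comparisons at one time within a genotype share mice with the time comparisons, so their values are not separate evidence.

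**Figure D4:**
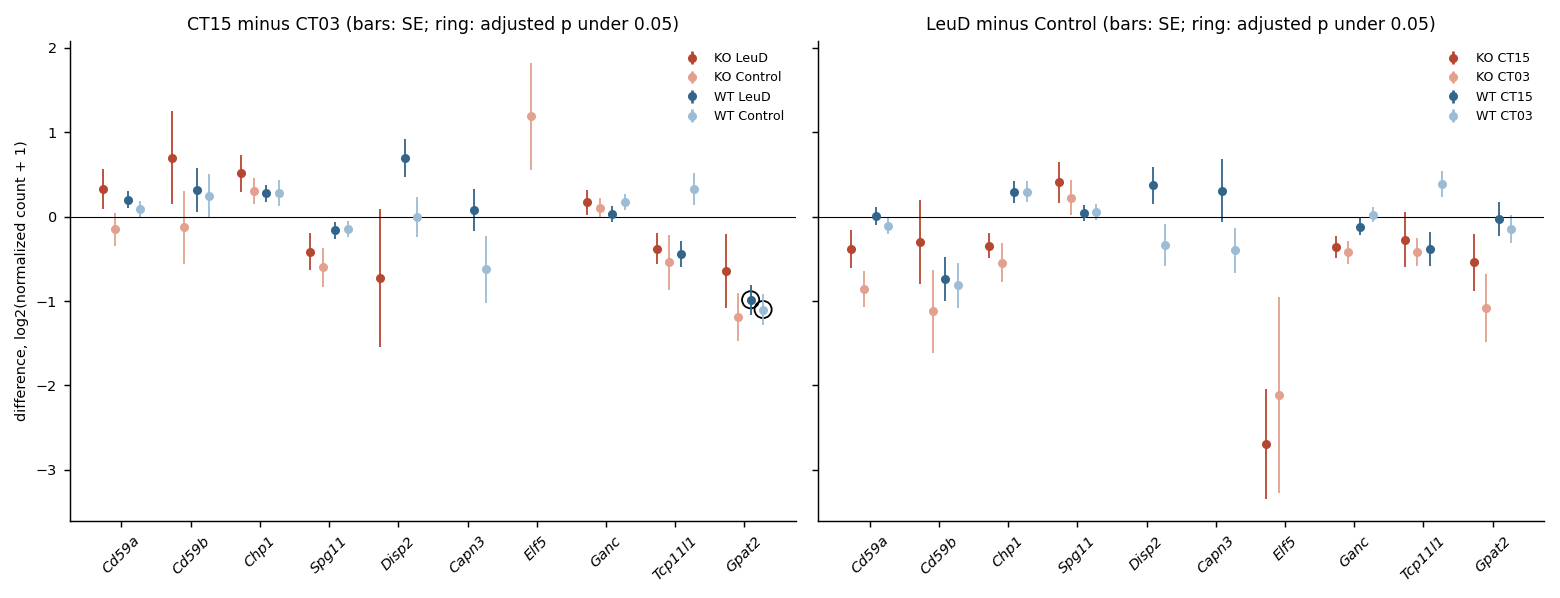
Differences CT15 minus CT03 (left panel) and LeuD minus Control (right panel) of each gene on the log2(normalized count + 1) scale, with SE bars from 3 mice against 3 and a ring where the adjusted p was under 0.05. The 2 rings are those of Gpat2 at -0.99 in WT LeuD and -1.10 in WT Control, and in the right panel the KO points of Elf5 reach -2.70.

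Whether the diet effect differed between genotypes was tested as an interaction in 12 libraries per time. No member was called: at CT15 0 of 8 (1 at an unadjusted p under 0.05, beside 12.1% of all genes, and 0.102% of all genes called) and at CT03 0 of 8 (5 at an unadjusted p under 0.05, and 0.0% of all genes called, with 1913 of 14649 genes, or 13.1%, at an unadjusted p under 0.05 and 1 called by edgeR). At CT03, Chp1 gave -0.84 ± 0.28, Cd59a -0.74 ± 0.24 and Ganc -0.45 ± 0.15 (adjusted p = 0.310 each, limma), Tcp11l1 gave -0.81 ± 0.20 (adjusted p = 0.264) and Disp2 gave 2.27 ± 0.87 (adjusted p = 0.333). At CT15, Chp1 gave -0.63 ± 0.18 (adjusted p = 0.215). The calls changed with 1 mouse. Without KO LeuD CT03 replicate 3, 5 members were called at CT03, with Cd59a at -0.96 (adjusted p = 0.0118), Chp1 at -1.08 (adjusted p = 0.0187), Ganc at -0.54 (adjusted p = 0.0332) and Tcp11l1 at -0.81 (adjusted p = 0.0455), and Gpat2 the remaining one, beside 7.17% of all genes.

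Each of the 10 genes was set beside the gene most like it in pattern over the libraries. The measure was Pearson's r of log2 values among genes with a mean of at least 50, over 24 libraries or, for Capn3 and Elf5, 18. It reflects genotype, diet and time together and is a description. Since the 10 genes were picked for their genotype difference, nothing is read from where their matches lie. Chp1 was most like Slc1a2, a glutamate transporter gene (r = 0.94), 65 genes toward the chromosome start from Eif2ak4, Tcp11l1 most like Bloc1s6 (0.90), 86 genes toward the end, and Cd59b most like Rmdn3 (0.86), 17 genes toward the end. Disp2 and Capn3 were most like Umad1 on chromosome 6 (0.88 and 0.87), and Ganc most like Eif3j2 on chromosome 18 (0.78). Cd59a was most like Dio1 on chromosome 4 (0.87), Spg11 most like H2-DMb1 on chromosome 17 (0.89), Gpat2 most like Retreg3 on chromosome 11 (0.86) and Elf5 most like Riok3 on chromosome 18 (0.87).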

How the data were processed

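Polyadenylated RNA of 24 mouse livers was sequenced with a kit that normally keeps no strand information. Per the submitters' processing notes, Trimmomatic 0.36, STAR 2.5.2b, featureCounts, Subread 1.5.2, DESeq2, DESeq and GRCm39 were used. No source used here gives their settings. The authors deposited 10 tables, each for a pair of groups, with a p-value and its adjusted form, the log2 fold change and, for 6 libraries, a signal made of counts over a size factor, per the file headers. Values came out as whole reads in 100% of 459526 cases (tolerance 0.01), and reads of a library differed between tables in 0 cases. In 2 columns the step came from other tables. Tables list 14674 to 15073 genes, with at least 61 reads summed over the 6 libraries.

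Levels are recovered reads over median-of-ratios size factors of the 24 libraries. Time and diet were tested within each table on log2(normalized count + 1) with limma 3.58.1 (trend, 3 mice against 3, 2-sided), interactions in 12 libraries, and calls were made under an adjusted p of 0.05. P-values measure the spread between the mice of this study alone. The fits were tested on simulated data. edgeR 4.0.16 and DESeq2 1.42.0 on recovered reads were alternatives, with the pseudocount, a filter on low values, scaling, a replicate block and left-out libraries.

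The members and all lists were chosen with earlier results of these data known. Named genes are the members, Eif2ak4, the measured neighbours and most alike gene of each member, the listed relatives, and other genes without overlap. Genes that share 50-base stretches with a member are also named. Distances in bases were planned, but the annotation at hand was for GRCm38 and the files for GRCm39, so 15701 genes matched by identifier were placed by gene order alone. Promoter windows come from RefSeq (GRCm38.p6).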

Additional observations from a re-analysis of the deposited data

How the results depend on the processing

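The number of members without overlap between KO and WT was 6 under TMM scaling and under RPM scaling. The pseudocount does not enter this count. The number was also 6 without the 3 acinar-rich libraries, 10 in Control CT03 alone and 6 to 7 with 1 library left out. Leaving out libraries can remove an overlap but not create one, so these counts could not fall and are no check. The same holds for the genes near Eif2ak4 with 1 library left out. The 8 genes without overlap within 100 places of Eif2ak4 became 8 to 11 with 1 library left out and 3 without the 10 members, an alternative chosen after seeing the data, and the relatives stayed at 0 to 0. Of the members' genotype differences, 0 turned direction. The members were picked for these differences in the same libraries, so this too is no check. For time, 1 member called in WT Control became 0 in 1 fit of 24 libraries, 0 with the replicate block and 0 to 0 with 1 library left out. In WT LeuD, 1 became 2 with DESeq2 and 2 in the authors' deposited table (Disp2 added, adjusted p = 0.0411), 0 with the replicate block (Gpat2 at adjusted p = 0.0518) and 0 to 1 with 1 library left out. In KO Control, 0 became 1 in 1 fit of 24 libraries (Gpat2, adjusted p = 0.0185), and in KO LeuD 0 became 0 to 1 with 1 library left out. For diet in KO CT15, 0 became 1 in 1 fit of 24 libraries (Ganc), 1 with DESeq2 and 1 in the authors' deposited table (Elf5). Over all genes these 3 settings called 1219, 698 and 698. In KO CT03, 0 became 3 in 1 fit of 24 libraries (Cd59a, Gpat2 and Ganc), 1 with DESeq2 and 1 in the authors' deposited table (Cd59a), and 0 to 3 with 1 library left out. Over all genes the first 3 of these settings called 628, 520 and 520. The genotype by diet count at CT03 was 0 to 5 with 1 library left out. Calls over all genes moved as well, as given below, so nothing is read from these member counts. The cause of these changes was not tested. Where a comparison holds 1 acinar-rich library, leaving it out is among the values above. Whether replicate numbers pair the mice was not settled. The correlations of deviations ran from -0.411 to 0.498, and in no comparison were all 3 over 0.1. For diet in WT CT03 (0.104, 0.100 and 0.010), however, each replicate was most like the one with its own number.

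Counts of all genes called also moved. For time in WT Control, 212 became 906 with DESeq2, 907 in the authors' deposited table and 42 with the replicate block. In WT LeuD, 1424 became 720 in 1 fit of 24 libraries and 747 with the block. In KO Control, 6 became 578 in 1 fit, 357 with DESeq2 and in the deposited table, and 0 with the block. In KO LeuD, 120 became 1176 in 1 fit, 845 with DESeq2, 844 in the deposited table, 69 with the block and 9 without the acinar-rich libraries. For diet in KO CT15, 3 became 1219 in 1 fit, 698 with DESeq2 and in the deposited table, and 0 with the block. In KO CT03, 0 became 628 in 1 fit. In WT CT15, 28 became 3 in 1 fit, 523 with DESeq2 and in the deposited table, 14 with edgeR and 64 with the block. In WT CT03, 330 became 24 in 1 fit, 961 with DESeq2 and 960 in the deposited table. For genotype by diet at CT15, 15 became 81 in 1 fit, 1 with edgeR, 3 with a pseudocount of 5, and 0 with the block and without the acinar-rich libraries. Genotype by time went to 0 with the block on Control (4 before), and to 9 in 1 fit and 0 without the acinar-rich libraries on LeuD (3 before). With 1 library left out, the counts for time ran from 4 to 133 in WT Control, 561 to 1176 in WT LeuD, 0 to 5 in KO Control and 31 to 605 in KO LeuD. For diet they ran from 0 to 203 in KO CT15, 0 to 1234 in KO CT03, 0 to 132 in WT CT15 and 75 to 443 in WT CT03. For genotype by diet they ran from 0 to 18 at CT15 and 0 to 1050 at CT03, and for genotype by time from 0 to 4 on Control and 3 to 36 on LeuD. Depth limits Disp2, Capn3, Cd59b and Gpat2, whose KO reads are few. It also limits Elf5, which had 21 reads in 6 WT libraries and 312 in 12 KO libraries.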

Other observations

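Besides the 5 members, 8 genes had 12 KO libraries that did not overlap the 12 WT libraries, and 4 of these lie on chromosome 2 within 110 places of Eif2ak4. A430105I19Rik and Eif3j1 were lower in KO, as given above. Bloc1s6, which encodes a subunit of a complex for lysosome-related organelles, was higher at 788 ± 58.0 normalized counts in KO and 542 ± 45 in WT (0.54). Sppl2a, an intramembrane protease, was higher at 7595 ± 816 in KO and 5733 ± 528 in WT (0.40). The other 4 lie elsewhere. Eif3j2 on chromosome 18 was higher in KO. Adamts10 on chromosome 17, a secreted metalloprotease gene, had 145 ± 24.5 in KO and 226 ± 28.7 in WT (-0.65). Umad1 on chromosome 6 had 398 ± 62.5 in KO and 566 ± 41.8 in WT (-0.52). Rab11b-ps2, a processed pseudogene on chromosome 19, had 51 ± 14.9 in KO and 15.2 ± 2.90 in WT (1.64; all SD, n = 12), and is named outside the rule because its mean is under 50. These are descriptions with no test, and their cause was not tested.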
